A study of Mus musculus with 12 samples.

Results

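The 34 genes described here carry out glycolysis, the pentose phosphate pathway and the response to low oxygen, and they were followed in mouse CD4 T cells cultured with and without retinoic acid. They were chosen by name and function and matched by symbol in the deposited expression table. All 34 were found among its 52635 genes, and all 34 were among the 11922 genes that reached 1 FPKM in at least 2 libraries and were tested. P4ha2 reached that level in 2 libraries only, both from TG cells without retinoic acid, so it entered the test through the group in which it was highest. FPKM, the deposited unit, is a level per gene length and library depth. Reads recovered from it, as described below, were mostly whole numbers when that length was all annotated exons of a gene together. For Hk1 this is 8532 bases, against 3639 in its transcript Hk1-201, and for Hk2 5969 bases, against 5513 in Hk2-201. Levels and paralog shares compared between genes therefore depend on the annotation.

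Glycolysis splits glucose into pyruvate, which is either reduced to lactate or sent into mitochondria, and the pentose phosphate pathway draws on the same glucose 6-phosphate for NADPH and ribose. T cells raise glycolysis when they are activated, and cells on the way to the Th17 state are known for relying on it. HIF-1α, the product of Hif1a, is an oxygen-regulated transcription factor that induces many glycolytic genes. Prolyl hydroxylases encoded by Egln genes mark it for destruction when oxygen is present.

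Naive CD4 T cells were taken from C57BL/6 mice with 3 genotype labels, WT (wild type), RARα KO and RARα TG. RARα, the product of Rara, is a nuclear receptor through which retinoic acid (RA), the active derivative of vitamin A, acts on genes. All groups were activated for 24 h with antibodies to CD3 and CD28 in medium with charcoal-stripped serum. To all groups the Th17-type cytokines IL-6, IL-1β, IL-21, IL-23, TNFα and TGF-β1 and antibodies blocking IFNγ and IL-4 were added. Each genotype had 2 libraries without RA (0 nM) and 2 libraries with 10 nM RA for the whole culture, 12 libraries in all. The sources used here do not name the KO allele, the TG construct or its promoter, the age of the mice, or whether replicates came from separate mice. The p-values below measure the spread between these libraries, which may be technical in WT and KO. The TG libraries numbered 1 and 2 differed in sex at both doses, so they did not come from the same mouse.

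The 12 libraries had a depth of 16289969 to 25534588 reads, worked out from the smallest steps between low FPKM values, and 28 to 53456 reads stood behind each value of the 34 genes. Rara itself ranged over 12.3 to 18.9 FPKM in WT. It was no lower under the KO label, where it ranged over 16.8 to 19.5 FPKM, so the gene's total level does not check that label. In TG libraries Rara was at 72.8 and 63.3 FPKM without RA and 126 and 119 FPKM with RA, far above the other genotypes and higher with RA than without. The 8 markers of CD4 T cells summed to 766 to 1167 FPKM in every library, against 1.55 to 4.18 FPKM for the CD8 markers. The 5 dendritic-cell and class II markers summed to 23.5 and 25.8 FPKM in the WT libraries numbered 1 and to 156 and 164 FPKM in those numbered 2, and they were higher in the library numbered 2 in every group. Their part in the results was not tested, and fits without each library are given with the results. By Xist and the Y-linked Ddx3y the WT mice were male and the KO mice female, while TG replicate 1 was male and TG replicate 2 female. Sex and the KO label therefore cannot be told apart, which bears on the X-linked members Pgk1, Pdha1 and G6pdx.

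Promoter sequences are shown for 5 genes whose RA effects are described below, to show the short core of the hypoxia response element to which HIF-1 binds. They are the 250 bases upstream of a RefSeq transcription start on GRCm38.p6, printed 5′ to 3′ in the direction of the gene, with every ACGTG and GCGTG in capitals (read as CACGT or CACGC where it lies on the other strand). The windows lie at chr10:59323046-59323295 (plus strand) for P4ha1, chr12:54203875-54204124 (minus strand) for Egln3, chr12:73907617-73907866 (plus strand) for Hif1a, chr7:46845554-46845803 (plus strand) for Ldha and chr6:82774455-82774704 (minus strand) for Hk2, and none overlaps an annotated exon. The Hif1a and Ldha windows lie within the annotated span of their own gene, downstream of an earlier start, and those of P4ha1, Egln3 and Hk2 lie outside it.
P4ha1: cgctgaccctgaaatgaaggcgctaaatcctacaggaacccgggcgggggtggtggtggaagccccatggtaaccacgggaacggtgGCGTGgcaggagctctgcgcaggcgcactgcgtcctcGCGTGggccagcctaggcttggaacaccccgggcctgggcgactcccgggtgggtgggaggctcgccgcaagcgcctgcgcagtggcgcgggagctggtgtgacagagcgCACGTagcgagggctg
Egln3: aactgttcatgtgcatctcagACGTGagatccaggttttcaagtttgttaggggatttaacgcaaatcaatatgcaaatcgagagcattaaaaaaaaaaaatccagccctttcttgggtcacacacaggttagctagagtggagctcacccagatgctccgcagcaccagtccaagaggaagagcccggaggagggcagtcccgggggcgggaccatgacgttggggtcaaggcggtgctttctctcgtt
Hif1a: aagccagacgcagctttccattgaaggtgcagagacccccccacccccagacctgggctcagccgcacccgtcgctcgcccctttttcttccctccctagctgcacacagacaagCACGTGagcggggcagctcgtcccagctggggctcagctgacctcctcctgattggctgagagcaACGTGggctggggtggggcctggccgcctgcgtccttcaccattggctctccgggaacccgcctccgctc
Ldha: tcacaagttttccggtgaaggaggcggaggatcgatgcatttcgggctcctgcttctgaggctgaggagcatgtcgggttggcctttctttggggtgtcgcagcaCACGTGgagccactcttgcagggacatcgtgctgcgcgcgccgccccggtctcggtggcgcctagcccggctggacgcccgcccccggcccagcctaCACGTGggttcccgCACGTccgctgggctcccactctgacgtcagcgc
Hk2: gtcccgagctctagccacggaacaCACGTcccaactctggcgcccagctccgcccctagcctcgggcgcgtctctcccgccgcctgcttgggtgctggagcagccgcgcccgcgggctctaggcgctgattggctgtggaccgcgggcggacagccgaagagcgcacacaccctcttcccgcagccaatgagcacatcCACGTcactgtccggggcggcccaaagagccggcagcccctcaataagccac

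Every one of these windows held ACGTG, and only that of P4ha1 also held GCGTG. In the Ldha and Hif1a windows shown the core also formed CACGTG, the E-box bound by MYC-type factors, which contains ACGTG on both strands. Other windows differed. Ldha has another RefSeq window, at chr7:46846832-46847081, that held GCGTG but not ACGTG. Of the genes not shown, Pfkl held GCGTG but not ACGTG, and Tpi1 held neither. Pkm held neither in its upstream window and ACGTG in its downstream window. The RefSeq table had a promoter for 33 of the 34 genes, the exception being Bnip3l. ACGTG stood in a promoter of 17 of these 33 genes (51.5%), against 26.2% of the tested genes that had a promoter and 18.5% of all genes in the table. GCGTG stood in 25 of 33 (75.8%), against 51.8% of tested genes and 30.9% of all genes, and CACGTG in 5 of 33 (15.2%), against 10.5% and 6.86%. A gene was counted if any of its windows held the core. The 33 genes had 48 windows, and the 8311 tested genes with a promoter had 10562. The set also includes genes chosen as hypoxia-induced. Mean GC content was 60.8% in the windows of the members and 60.0% in those of tested genes. A match describes letters in a window and shows no binding.

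Levels of the 34 genes differed widely. Ldha, which makes lactate from pyruvate, was highest, with a mean of 557 FPKM over the 12 libraries. It was followed by the pyruvate kinase gene Pkm at 254 FPKM, Tpi1 at 223 FPKM and Aldoa at 221 FPKM, and the ranges of Pkm, Tpi1 and Aldoa over libraries overlapped. Hif1a came next at 188 FPKM, above every gene of the pentose phosphate pathway, of which Tkt was highest at 82.4 FPKM. At the low end were Aldoc at 1.54 FPKM and P4ha2 at 0.609 FPKM.

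Several members share long stretches of sequence with other annotated transcripts. Of the Gapdh-201 transcript, 85.8% lies in stretches of 100 bases that also occur in annotated transcripts of other genes, 82 of them pseudogenes, and Gapdh was listed at only 3.59 to 7.36 FPKM. The shared part was 67.0% for Pgk1, 43.6% for Eno1, 39.7% for Pgam1 and 33.5% for Bnip3. The sources used here do not say how reads that map to several places were counted, so the values of these genes are uncertain. For Hk1, Hk2, Pfkl, Aldoa and others the shared part was 0, and it was 9.82% for Pkm, 4.09% for Hif1a, 2.84% for Tpi1 and 1.32% for Ldha.

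In TG cells most of the set was lower with RA and a few members were higher. Of the 34 genes, 18 fell and 6 rose (limma, adjusted p under 0.05), and the other 10 did not pass. P4ha2 is counted among the falls here and below, although it passed the filter only through the TG libraries without RA. Among all tested genes 39.1% were called in this comparison, 19.4% as falls and 19.7% as rises, against 52.9% falls and 17.6% rises in the set. The libraries with and without RA did not overlap in 30 of the 34 genes (88.2%), against 71.1% of all tested genes. The median RA effect of the set was -0.33 on the log2(FPKM + 1) scale, and that of all tested genes was -0.02. When any 1 of the 4 TG libraries was left out, 14 to 16 of the 34 genes passed. Calls of Hk1, Hk2, Pfkl, Tpi1, Pgam1, Pkm, Ldha, Hif1a, Egln3, P4ha1 and Ero1l passed in each of those fits. They also passed under each of the other settings tried. P4ha2 is not listed with them, since the filter was set on all 12 libraries and not redone in those fits.

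Markers of other cells moved in this comparison too. The 10 B-cell markers summed to 32.3 and 35.2 FPKM in TG without RA and to 112 and 111 FPKM with RA, of which Ighm gave 101 and 95.9 FPKM. Without Ighm the sum was 4.82 and 7.61 FPKM without RA and 10.2 and 14.8 FPKM with RA. Both libraries with RA lay above both without in 6 of the 10, among them Cd79b (0.814 and 1.09 FPKM to 3.70 and 5.31 FPKM), and overlapped in the other 4, among them Pax5 (0.464 and 0.708 FPKM to 0.377 and 0.564 FPKM). None of the 10 was at 0 in any library. The 8 CD4 T-cell markers moved both ways. Their sum was 1019 and 962 FPKM without RA and 855 and 766 FPKM with RA, with Cd5, Cd2 and Cd28 lower in both libraries with RA than in both without. The other 5 were higher, among them Cd4 itself (49.9 and 46.6 FPKM to 87.7 and 76.8 FPKM) and Cd3e (34.6 and 30.8 FPKM to 57.4 and 58.1 FPKM). Their part in the results of TG cells was not tested, and in bulk samples fewer cells of a type and less RNA per cell cannot be told apart.

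**Figure D1:**
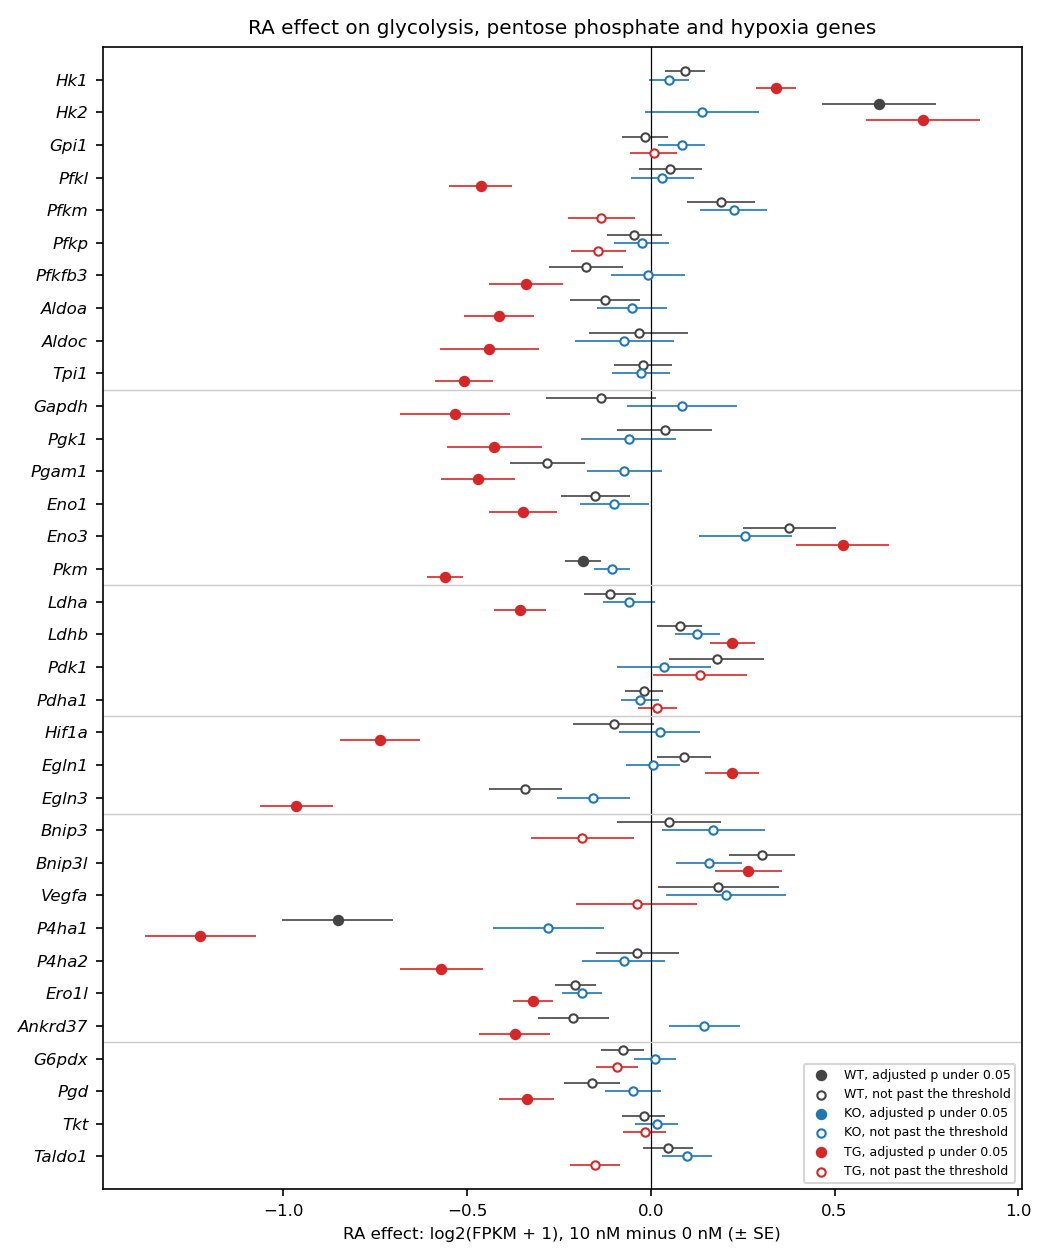
RA effect on each of the 34 genes in WT (grey), KO (blue) and TG (red) cells, as the difference of log2(FPKM + 1) between 10 nM and 0 nM RA with its SE. Filled points passed an adjusted p of 0.05 (3 in WT, 0 in KO and 24 in TG), and most filled red points lie left of 0.

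Of the 10 members of upper glycolysis, 5 fell and 2 rose in TG, and both rises were hexokinases. Hexokinases trap glucose in the cell by phosphorylating it. Hk2, the inducible hexokinase, was at 21.3 and 24.6 FPKM in TG without RA and 37.6 and 40.4 FPKM with RA. Both libraries with RA lay above both without, and the difference was 0.74 ± 0.16 (SE, limma adjusted p = 0.00557) on the log2 scale. In WT, Hk2 was at 17.2 and 19.2 FPKM without RA and 24.2 and 33.5 FPKM with RA, again without overlap, a rise of 0.62 ± 0.16 (SE, limma adjusted p = 0.0397). That call was lost, with adjusted p of up to 0.164, when either WT library without RA or replicate 2 with RA was left out. In KO the libraries overlapped, at 14.6 and 15.3 FPKM without RA and 14.7 and 18.7 FPKM with RA, with a difference of 0.14 ± 0.16 (SE, limma adjusted p = 0.81).

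Hk1, the constitutive hexokinase, also rose in TG, by 0.34 ± 0.05 (SE, limma adjusted p = 0.00142), from 26.5 and 24.6 FPKM to 33.5 and 31.7 FPKM. The share of Hk2 in the summed level of Hk1 and Hk2 was 37.7 and 40.9% in WT without RA and 45.2 and 52.1% with RA. In TG it moved from 44.6 and 50.1% to 52.9 and 56.1%, and in KO it stayed between 32.9 and 39.6% over both doses.

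Phosphofructokinase catalyses the committed step of glycolysis. Its liver-type gene Pfkl was at 40.7 and 42.2 FPKM in TG without RA and 30.4 and 29.2 FPKM with RA, a log2 change of -0.46 ± 0.09 (SE, limma adjusted p = 0.00314) with no overlap. In WT it was at 40.8 and 36.2 FPKM without RA and 38.5 and 41.4 FPKM with RA, which overlapped. Pfkm and Pfkp, which encode the muscle-type and platelet-type subunits, did not pass in TG (-0.13 ± 0.09 SE and -0.14 ± 0.08 SE), nor did Gpi1, the isomerase before them (0.01 ± 0.06 SE).

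Pfkfb3 makes and degrades fructose 2,6-bisphosphate, the activator of phosphofructokinase. WT libraries held it at 9.68 and 9.78 FPKM without RA against 8.38 and 8.61 FPKM with RA, and it was at 9.22 and 7.42 FPKM and 9.01 and 7.49 FPKM in KO. In TG it was at 8.93 and 9.30 FPKM without RA and 7.12 and 6.86 FPKM with RA. Only the TG difference passed (-0.34 ± 0.10 SE, limma adjusted p = 0.0268, against -0.18 ± 0.10 SE in WT), and it no longer did when any 1 of the 4 TG libraries was left out, with adjusted p of up to 0.119. The RA effects on Pfkfb3 in TG and WT were not shown to differ, with a difference of -0.16 ± 0.14 (SE, limma adjusted p = 0.57).

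Tpi1 encodes triose phosphate isomerase, which lets both products of the split sugar enter lower glycolysis. It was at 271 and 266 FPKM in TG without RA and 196 and 181 FPKM with RA. The groups did not overlap, and the log2 change was -0.51 ± 0.08 (SE, limma adjusted p = 0.00121). WT libraries lay between these extremes at both doses (247 and 228 FPKM without RA, 227 and 241 FPKM with RA), with an RA effect of -0.02 ± 0.08 (SE). The aldolase genes Aldoa and Aldoc fell in TG by 0.41 and 0.44 on the log2(FPKM + 1) scale. At the low level of Aldoc that scale understates the change, which was -0.71 with a pseudocount of 0.1 and -0.78 with voom (limma's weighted fit of counts) on reads recovered from the values. Aldoa was lost without TG replicate 2 with RA (adjusted p = 0.0649). Aldoc passed in 1 of 4 fits without a TG library, with adjusted p of up to 0.17, and did not pass with no filter on low values (adjusted p = 0.0782).

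**Figure D2:**
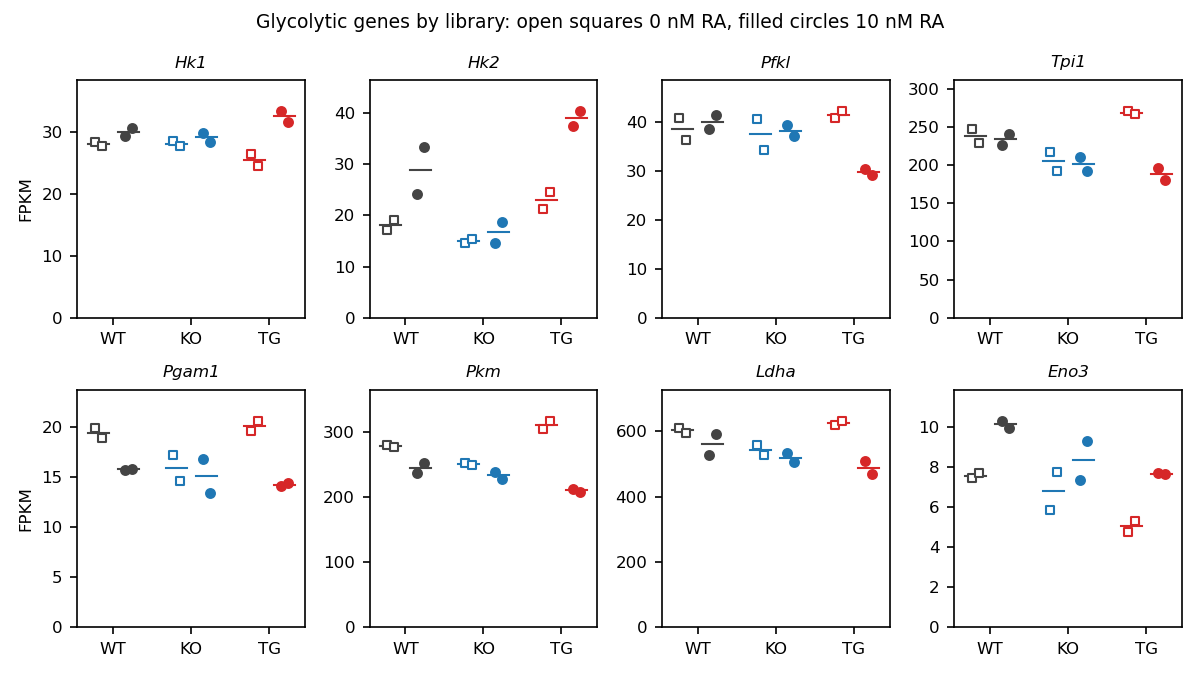
FPKM of 8 glycolytic genes in each of the 12 libraries (open squares 0 nM, filled circles 10 nM RA; lines are means of 2). In TG, both Hk genes and Eno3 were higher with RA, and Pfkl, Tpi1, Pgam1, Pkm and Ldha were lower, with no overlap between the pairs of libraries.

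Every member of lower glycolysis passed in TG, 5 as falls and Eno3 as a rise. The summed level of these 6 genes was 391 and 409 FPKM in TG without RA and 283 and 279 FPKM with RA. Pkm, the pyruvate kinase gene, at chr9:59656368-59679375 (GRCm38), made up most of that sum. It was at 304 and 317 FPKM in TG without RA, the highest 2 values of all libraries, and at 212 and 208 FPKM with RA, the lowest 2. This log2 change of -0.56 ± 0.05 (SE, limma adjusted p = 4.72e-05) left Pkm at 67.7% of its level without RA.

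In WT, Pkm was at 279 and 276 FPKM without RA and 237 and 251 FPKM with RA, a log2 change of -0.18 ± 0.05 (SE, limma adjusted p = 0.0477) that was lost without any 1 of the 4 WT libraries (adjusted p of up to 0.226). In KO it was at 252 and 249 FPKM and 238 and 228 FPKM, with a difference of -0.11 ± 0.05 (SE, limma adjusted p = 0.49).

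Gapdh and Pgk1 act at the oxidation of triose phosphate and at the ATP-making step that follows. Gapdh was at 5.22 and 7.36 FPKM in TG without RA and 3.59 and 4.42 FPKM with RA, a log2 change of -0.53 ± 0.15 (SE, limma adjusted p = 0.0217). It was not called without TG replicate 2 at 0 nM or without TG replicate 1 at 10 nM (adjusted p of up to 0.142), and its values are uncertain for the shared stretches given above. Pgk1 fell by 0.43, a call lost without any 1 TG library (adjusted p of up to 0.104), and Pgam1, the phosphoglycerate mutase gene, fell by 0.47 (19.6 and 20.6 FPKM to 14.0 and 14.4 FPKM).

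The enolase genes moved apart. Eno1 fell in TG by 0.35, a call kept in 1 of 4 fits without a TG library (adjusted p of up to 0.094). Eno3, known as the muscle enolase, was at 4.78 and 5.34 FPKM without RA and 7.74 and 7.65 FPKM with RA, a rise of 0.52 ± 0.13 (SE, limma adjusted p = 0.0113) that was lost without TG replicate 1 at either dose (adjusted p of up to 0.0622). In WT the corresponding values of Eno3 were 7.47 and 7.73 FPKM and 10.3 and 9.99 FPKM, without overlap, and the difference did not pass (0.38 ± 0.13 SE, limma adjusted p = 0.1). Eno3 took 9.87 and 10.6% of the summed level of Eno1 and Eno3 in TG without RA and 17.9 and 18.5% with RA. The values of Eno1 are uncertain for the shared stretches given above, and so is this share.

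**Figure D3:**
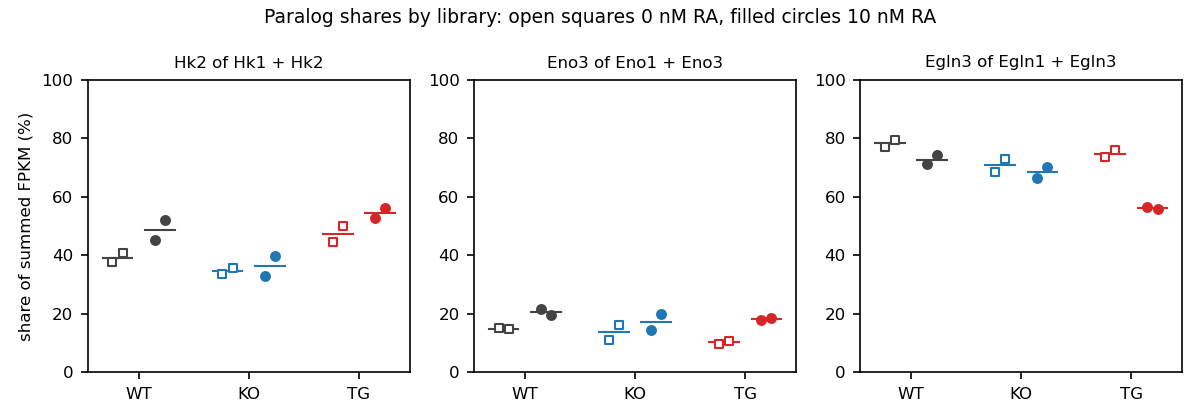
Share of the summed FPKM of a pair of paralogs taken by Hk2, Eno3 and Egln3 in each library (open squares 0 nM, filled circles 10 nM RA; lines are means of 2). The share of Egln3 in TG was 73.8 and 76.0% without RA and 56.6 and 55.9% with RA, the lowest of all libraries. Eno1 shares long stretches with other transcripts, so the share of Eno3 is uncertain.

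At the branch after pyruvate, the gene for lactate formation fell and its counterpart rose. Ldha was at 619 and 632 FPKM in TG without RA and 509 and 469 FPKM with RA, a log2 change of -0.36 ± 0.07 (SE, limma adjusted p = 0.00442) with no overlap. In WT it was at 611 and 596 FPKM without RA and 529 and 591 FPKM with RA (-0.11 ± 0.07 SE, limma adjusted p = 0.38), and in KO at 558 and 526 FPKM and 535 and 505 FPKM (-0.06 ± 0.07 SE, limma adjusted p = 0.82). Ldhb, whose subunit favours the use of lactate, rose in TG by 0.22, a call lost without any 1 TG library (adjusted p of up to 0.0809). Ldha still took at least 96.4% of the summed level of Ldha and Ldhb in every library.

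No call was made at the entry of pyruvate into mitochondria. Pdha1, a subunit of pyruvate dehydrogenase, differed by 0.02 ± 0.05 (SE) in TG, and Pdk1, the kinase that blocks it and a known HIF-1 target, by 0.13 ± 0.13 (SE). Neither passed in any comparison.

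Of the 4 pentose phosphate genes, 1 passed. Pgd, a dehydrogenase of the pathway and a source of NADPH, was at 32.9 and 36.5 FPKM in TG without RA and 27.6 and 26.9 FPKM with RA, a log2 change of -0.34 ± 0.08 (SE, limma adjusted p = 0.00787). It was lost without TG replicate 2 at 0 nM (adjusted p = 0.0589). WT values were 32.7 and 31.3 FPKM without RA and 26.4 and 30.9 FPKM with RA (-0.16 ± 0.08 SE, limma adjusted p = 0.23), and KO values were 26.6 and 26.7 FPKM and 25.2 and 26.2 FPKM (-0.05 ± 0.08 SE, limma adjusted p = 0.87). G6pdx, the entry enzyme, differed by -0.09 ± 0.06 (SE) in TG, transketolase (Tkt) by -0.02 ± 0.06 (SE) and transaldolase (Taldo1) by -0.15 ± 0.07 (SE).

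The oxygen-sensing genes gave some of the larger changes. Hif1a, at chr12:73901375-73947530, was at 229.5 and 218 FPKM in TG without RA and 136 and 132 FPKM with RA. These were the highest and the lowest pair of values among the groups, and the log2 change of -0.74 ± 0.11 (SE, limma adjusted p = 0.000955) left 59.8% of the level without RA. In WT it was at 207 and 194 FPKM without RA and 197 and 177 FPKM with RA, which overlapped (-0.10 ± 0.11 SE, limma adjusted p = 0.62). In KO the libraries overlapped as well, at 205 and 174 FPKM and 213 and 173 FPKM (0.02 ± 0.11 SE, limma adjusted p = 0.96).

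Egln3, at chr12:54178981-54203860, encodes a HIF prolyl hydroxylase that is itself induced by HIF-1. It was at 71.7 and 83.2 FPKM in TG without RA and 40.6 and 37.5 FPKM with RA, a log2 change of -0.97 ± 0.10 (SE, limma adjusted p = 0.000126) to 50.5% of the level without RA. WT libraries were at 107 and 111 FPKM without RA and 79.5 and 92.8 FPKM with RA, apart from each other but not past the threshold (-0.34 ± 0.10 SE, limma adjusted p = 0.0662). KO libraries were at 75.9 and 83.3 FPKM and 67.8 and 74.9 FPKM (-0.16 ± 0.10 SE, limma adjusted p = 0.63). Egln1, the main hydroxylase of normal oxygen levels, rose in TG by 0.22, a call lost without any 1 TG library (adjusted p of up to 0.189).

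**Figure D4:**
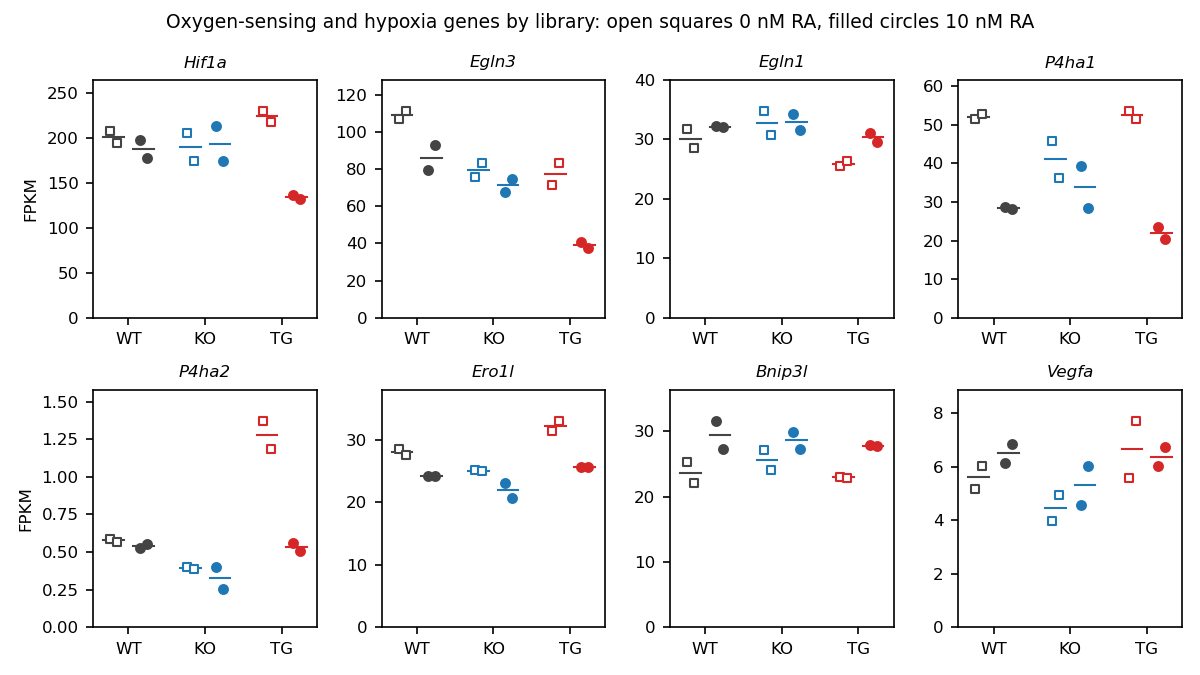
FPKM of 8 oxygen-sensing and hypoxia-induced genes in each of the 12 libraries (open squares 0 nM, filled circles 10 nM RA; lines are means of 2). Hif1a, Egln3 and P4ha1 were lowest in TG with RA, and P4ha2 was above 1 FPKM only in TG without RA.

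Among the hypoxia-induced genes, P4ha1 showed the largest fall of the 34 in both WT and TG on the log2(FPKM + 1) scale, although in TG both P4ha1 and P4ha2 were left at 41.7% of their level without RA. It encodes the catalytic subunit of collagen prolyl 4-hydroxylase and lies at chr10:59323296-59373304. In WT it was at 51.5 and 52.8 FPKM without RA and 28.7 and 28.2 FPKM with RA, and in TG at 53.6 and 51.6 FPKM and 23.6 and 20.3 FPKM. The WT and TG pairs lay close together without RA, and each lay apart from its own pair with RA, and the log2 changes were -0.85 ± 0.15 (SE, limma adjusted p = 0.0111) in WT and -1.23 ± 0.15 (SE, limma adjusted p = 0.000339) in TG. The WT call held under the 6 other settings but not without replicate 1 or 2 at 0 nM or replicate 1 at 10 nM (adjusted p of up to 0.076). In KO, 45.8 and 36.3 FPKM without RA and 39.4 and 28.4 FPKM with RA overlapped (-0.28 ± 0.15 SE, limma adjusted p = 0.55).

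P4ha2, its paralog, was at 1.37 and 1.19 FPKM in TG without RA and 0.563 and 0.505 FPKM with RA, with all other libraries at or below 0.589 FPKM. The log2 change was -0.57 ± 0.11 (SE). P4ha2 passed the filter only through the TG libraries without RA, so its p-value under the filter is not given. With no filter on low values the fall passed (limma adjusted p = 0.00176). At this low level the log2(FPKM + 1) scale understates the change, which was -1.26 with voom on reads recovered from the values, 169 and 189 reads without RA and 59 and 80 reads with RA. Ero1l, which forms disulfide bonds in the endoplasmic reticulum, fell by 0.32 in TG. Ankrd37 fell by 0.37, a call kept in 1 of 4 fits without a TG library (adjusted p of up to 0.103).

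Bnip3l, a receptor for the removal of mitochondria, rose in TG by 0.27, a call lost without any 1 TG library (adjusted p of up to 0.15). Its paralog Bnip3 and Vegfa, the vascular growth factor gene, did not pass in TG (-0.19 ± 0.14 SE and -0.04 ± 0.16 SE), and the Vegfa libraries overlapped. Of the 18 genes that fell in TG, 12 held ACGTG in a promoter window and 12 held GCGTG, with 17 holding at least 1 of them. Of the 5 that rose and had a window, 2 held ACGTG, 4 held GCGTG and 5 held at least 1. Of the 10 that did not pass, 3 held ACGTG, 9 held GCGTG and 9 held at least 1. Among all 33 members with a window 93.9% held at least 1, against 63.5% of tested genes with a promoter. Whether the cores bear on the falls was not tested.

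In WT cells RA changed few of the 34 genes. Hk2 rose and P4ha1 and Pkm fell (8.82% of the set), while 10.1% of all tested genes were called, 6.67% as rises and 3.47% as falls, so the count is near the background and is no result about the set. Over the alternatives tried it ran from 0 to 6. Hk2 and Pkm did not pass with no filter on low values (adjusted p = 0.097 and 0.138) or when only the WT libraries were fitted (adjusted p = 0.172 and 0.21). Libraries with and without RA did not overlap in 21 of the 34 genes (61.8%), against 53.8% of tested genes. The median of the set was -0.03, and that of all tested genes was 0.02. An unadjusted p under 0.05 was found for 8 of the 34, against 3077 of 11922 tested genes. Besides the 3 called, these were Egln3, Ero1l, Bnip3l, Pgam1 and Eno3. None of them passed (limma adjusted p of 0.0508 for Ero1l, the lowest of them, to 0.12 for Pgam1).

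In the libraries labelled KO, RA called none of the 34 genes in limma, and 0.143% of all tested genes were called. Libraries did not overlap in 9 of the 34 genes (26.5%), against 42.3% of tested genes. At an unadjusted p under 0.05 there were 2, Ero1l and Pfkm, against 1280 of 11922 tested genes, and voom on recovered reads also called 0. RA effects on the set ran from -0.28 for P4ha1 to 0.26 for Eno3. The RA effect in KO was not shown to differ from that in WT for any member. Of the 34, 0 were called, by voom also 0, and 0.00839% of tested genes were called. P4ha1 and Ankrd37 had an unadjusted p under 0.05, as did 640 of 11922 tested genes. For P4ha1 the difference was 0.57 ± 0.21 (SE, limma adjusted p = 0.81) and for Hk2 -0.48 ± 0.22 (SE, limma adjusted p = 0.96).

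No member passed between KO and WT libraries at either dose. Without RA the share called among the 34 was 0, against 1.74% of all tested genes. At an unadjusted p under 0.05 there were 7 of 34, against 1808 of 11922 tested genes. These 7 were lower in KO (Pkm, Tpi1, Egln3, P4ha1, Pgd, Ero1l and Pgam1). Egln3 came nearest, at -0.45 ± 0.10 (SE, limma adjusted p = 0.07), and it was the 1 gene called by voom. With RA none passed, against 0.881% of tested genes, and 0 were called by voom. An unadjusted p under 0.05 was found for 5 of 34 (Hk2, Tpi1, Egln3 and Ero1l lower and Ldhb higher in KO), against 1320 of 11922 tested genes. Hk2 showed the largest difference, -0.75 ± 0.16 (SE, limma adjusted p = 0.0821). Without WT replicate 1 at 10 nM, Hk2 was called.

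TG and WT cells without RA differed in 2 of the 34 genes (5.88%), while 4.31% of all tested genes were called, 2.25% as higher and 2.06% as lower in TG. The count is near the background and is no result about the set. Libraries did not overlap in 23 of the 34 (67.6%), against 48.1% of tested genes. P4ha2 was higher in TG (0.53 ± 0.11 SE), but it passed the filter only through that group, so its call is no separate evidence. Egln3 was lower in TG (-0.49 ± 0.10 SE, limma adjusted p = 0.0312), with both TG libraries below both WT libraries. Each call was lost without any 1 of the 4 libraries compared (adjusted p of up to 0.181 for P4ha2 and 0.17 for Egln3).

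With RA, TG cells were below WT cells in 5 of the 34 genes, 14.7%, and above in 0. Among tested genes 11.5% were called, 6.84% as higher and 4.64% as lower in TG. Libraries did not overlap in 22 of the 34 (64.7%), against 54.4% of tested genes. Egln3 differed by -1.12 ± 0.10 (SE, limma adjusted p = 0.00027), and this was the call that held without each library and in every other setting. All were lower in TG, Hif1a with a difference of -0.48 ± 0.11 (SE, limma adjusted p = 0.0255), Pfkl with -0.41 ± 0.09 (SE, limma adjusted p = 0.0177), Tpi1 with -0.31 ± 0.08 (SE, limma adjusted p = 0.0394) and Pkm with -0.22 ± 0.05 (SE, limma adjusted p = 0.0242), with no overlap in any of the 5. Hif1a and Tpi1 were lost without any 1 of the 4 libraries (adjusted p of up to 0.133 and 0.214). Pfkl and Pkm were lost without WT replicate 2 or either TG library (up to 0.107 and 0.134).

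The same 5 genes had an RA effect that was lower in TG than in WT. Among tested genes 7.48% were called in this test of the difference, 2.73% in that direction and 4.75% in the other. The RA effect on Hif1a was -0.74 in TG and -0.10 in WT, a difference of -0.64 ± 0.16 (SE, limma adjusted p = 0.0445). For Egln3 the effects were -0.97 and -0.34, a difference of -0.62 ± 0.14 (SE, limma adjusted p = 0.0317), and for Pfkl -0.46 and 0.05, a difference of -0.52 ± 0.12 (SE, limma adjusted p = 0.0394). For Tpi1 they were -0.51 and -0.02 (-0.49 ± 0.11 SE, limma adjusted p = 0.0348), and for Pkm -0.56 and -0.18 (-0.38 ± 0.07 SE, limma adjusted p = 0.014).

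These differences rest on few libraries. Pkm passed in 5 of the 8 fits that left out a WT or TG library, failing without WT replicate 2 at 0 nM and without TG replicate 2 at either dose (adjusted p of up to 0.0572). Egln3 passed in 2 of 8 and Pfkl in 1 of 8, with adjusted p of up to 0.111 and 0.126. Hif1a and Tpi1 passed in 0 of 8 (up to 0.137 and 0.121). Of the 3 genes called in both WT and TG, the RA effect differed for Pkm and was not shown to differ for the other two, at 0.12 ± 0.22 (SE, limma adjusted p = 0.82) for Hk2 and -0.37 ± 0.21 (SE, limma adjusted p = 0.36) for P4ha1. The TG comparisons with WT and the RA effects use the same libraries, so their agreement is not independent.

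**Figure D5:**
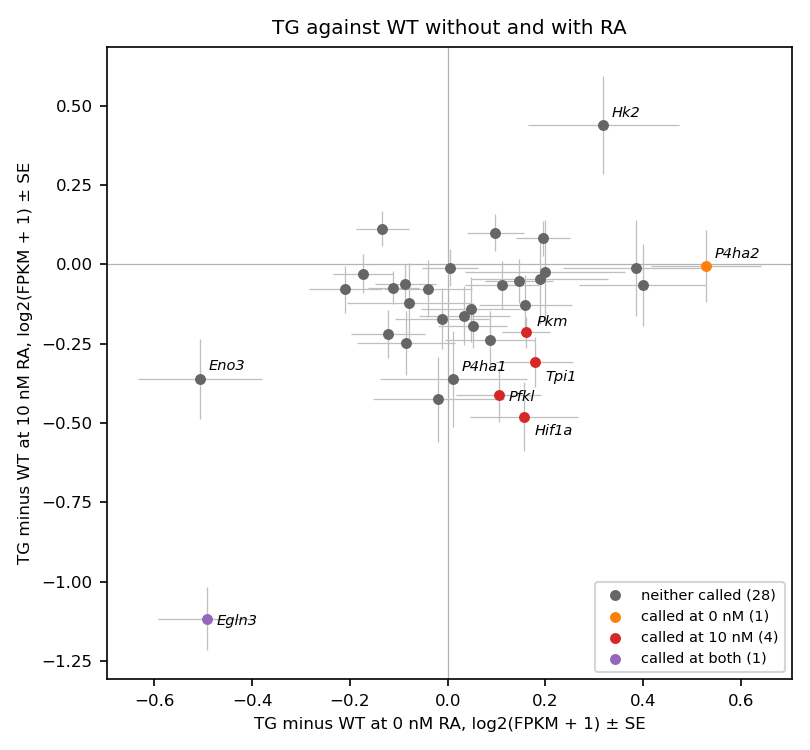
Difference between TG and WT in log2(FPKM + 1) for each of the 34 genes without RA (x axis) and with 10 nM RA (y axis), with SE. Egln3 passed at both doses, P4ha2 at 0 nM, and Hif1a, Pfkl, Tpi1 and Pkm at 10 nM, all 4 to the right of 0 without RA and below 0 with RA.

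Other genes of these routes, in 7 lists drawn up by function, moved in both directions with RA in TG. List medians ran from -0.18 for transporters to 0.14 for pentose phosphate and ribose genes, against -0.02 for all tested genes, and fits without single libraries were made for the 34 members only. The counts below stand against 19.7% rises and 19.4% falls among all tested genes in TG, and 6.67% and 3.47% in WT. Of 7 tested glucose and lactate transporters, 0 rose and 2 fell, among them Slc2a1, the glucose transporter GLUT1 (38.2 and 41.5 FPKM without RA, 34.1 and 28.8 FPKM with RA, -0.33 ± 0.10 SE, limma adjusted p = 0.0297). Of 10 other glycolytic enzymes, 3 rose and 5 fell, with Adpgk, an ADP-using glucokinase, among the falls (-0.47 ± 0.07 SE, limma adjusted p = 0.000975) and Bpgm, which makes 2,3-bisphosphoglycerate, among the rises (0.48 ± 0.11 SE, limma adjusted p = 0.0108). Of 11 genes of pyruvate entry into mitochondria, 1 rose and 2 fell. The rise was Pdk2, a kinase that restrains pyruvate dehydrogenase, at 1.76 and 2.02 FPKM without RA and 4.91 and 5.20 FPKM with RA (1.07 ± 0.21 SE, limma adjusted p = 0.00373).

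Of 8 further genes of the pentose phosphate and ribose routes, 3 rose and 1 fell in TG, and 3 rose and 1 fell in WT. In both genotypes the rises were Prps2, Rbks and H6pd and the fall was Prps1. Prps1 and Prps2 make phosphoribosyl pyrophosphate, from which nucleotides are built. Prps1 was at 149 and 164 FPKM in TG without RA and 100.1 and 99.5 FPKM with RA (-0.64 ± 0.06 SE, limma adjusted p = 5.04e-05), and in WT it changed by -0.39 ± 0.06 (SE, limma adjusted p = 0.00471). Prps2 rose, from 40.5 and 40.2 FPKM to 61.1 and 63.8 FPKM in TG (0.62 ± 0.05 SE, limma adjusted p = 4.42e-05) and by 0.25 ± 0.05 (SE, limma adjusted p = 0.0214) in WT. Rbks, which phosphorylates ribose, rose by 1.40 ± 0.18 (SE, limma adjusted p = 0.000405) in TG and 0.69 ± 0.18 (SE, limma adjusted p = 0.0432) in WT, and H6pd by 0.39 ± 0.08 (SE, limma adjusted p = 0.00423) and 0.32 ± 0.08 (SE, limma adjusted p = 0.0336).

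Among 6 tested HIF regulators, Arnt passed as a rise in TG, as did Epas1, which entered the test only through the group in which it was high. Arnt, the partner that HIF-1α needs to bind DNA, was at 9.64 and 8.95 FPKM without RA and 12.6 and 13.4 FPKM with RA (0.44 ± 0.05 SE, limma adjusted p = 0.000255), and it also rose in WT (0.29 ± 0.05 SE, limma adjusted p = 0.0124). Epas1, which encodes HIF-2α, was at 0.191 and 0.148 FPKM in TG without RA and 1.77 and 1.53 FPKM with RA, and its test is not given, since TG with RA was the group through which it passed the filter.

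Of 22 other hypoxia-induced genes, 6 rose and 8 fell in TG (27.3 and 36.4%, against 19.7 and 19.4% of all tested genes), and 4 rose and 2 fell in WT (18.2 and 9.09%, against 6.67 and 3.47%). Mxi1, a MAX partner that opposes MYC, was at 4.47 and 5.19 FPKM in TG without RA and 12.9 and 12.9 FPKM with RA. It rose by 1.26 ± 0.09 (SE, limma adjusted p = 1.28e-05) in TG and 0.40 ± 0.09 (SE, limma adjusted p = 0.0231) in WT. Plod2, a collagen lysyl hydroxylase, fell in TG (-0.97 ± 0.16 SE, limma adjusted p = 0.00185), and Jmjd6 fell in TG (-0.54 ± 0.05 SE, limma adjusted p = 0.000113) and in WT (-0.28 ± 0.05 SE, limma adjusted p = 0.0147).

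Of 15 regulators of glycolysis in T cells, 4 rose and 5 fell in TG (26.7 and 33.3%, against 19.7 and 19.4% of all tested genes). Txnip and its relative Arrdc4, whose products hold back glucose uptake, rose in TG by 1.05 ± 0.11 (SE, limma adjusted p = 0.000154) and 1.10 ± 0.16 (SE, limma adjusted p = 0.000977) and in WT by 0.59 ± 0.11 (SE, limma adjusted p = 0.0147) and 0.86 ± 0.16 (SE, limma adjusted p = 0.0149). Irf4, a factor that supports the metabolic programme of activated T cells, was at 404 and 415 FPKM in TG without RA and 249 and 251 FPKM with RA (-0.71 ± 0.05 SE, limma adjusted p = 8.31e-06). Irf4 also fell in WT (-0.38 ± 0.05 SE, limma adjusted p = 0.00199), and the RA effect was lower in TG than in WT, with a difference of -0.33 ± 0.06 (SE, limma adjusted p = 0.0173). Myc, a driver of glycolytic genes, fell in TG (-0.35 ± 0.07 SE, limma adjusted p = 0.00538), and in WT its difference was -0.11 ± 0.07 (SE, limma adjusted p = 0.4).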

How the data were processed

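RNA was sequenced as single reads from stranded libraries of 12 CD4 T-cell cultures, per the labels' protocols. The deposited values are FPKM per gene, made by the authors, and the tools listed in the submitters' processing notes are STAR, Trimmomatic 0.32, DESeq2 and HTSeq 0.6.1, with the builds mm10 and GRCm38.p5, with no role given for any of them. The sources used here do not say how multi-mapping reads and strand were treated.

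On log2(FPKM + 1), a linear model with moderated variances and a trend (limma 3.58.1, R 4.3.3) was fitted to the 11922 genes that reached 1 FPKM in at least 2 libraries. The 6 groups of 2 libraries shared 1 estimate of the spread (6 residual and 2.51 prior degrees of freedom). Two-sided p-values received Benjamini-Hochberg adjustment over all tested genes within each of 9 comparisons, with a threshold of 0.05, and genes past it are said to be called, to rise or to fall. Effects are differences of log2(FPKM + 1) with their SE, which understate the change of low genes. Aldoa has 2 rows in the table, and the row at 0.0703 to 0.490 FPKM was not used. The code was tested on simulated data.

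Depth came from the step of 1 read, and 95.3 to 95.9% of values of up to 20 reads lay within 0.02 of a whole number. Intervals from depth cover counting error only. Promoters are from RefSeq on GRCm38.p6, and gene positions and transcripts from GENCODE on GRCm38. The members and lists were chosen with earlier results of these data known. Values in every library and full statistics are given for called members whose groups do not overlap (at most 8 per comparison, by size), for Hif1a, Hk2, Pfkfb3, Pkm, Ldha and Pgd throughout, and for at most 3 rises and 3 falls of each further list, by p. Other members are named with their effect. Some genes of the further lists that this rule names are not reported here. Alternatives were a pseudocount of 0.1, no filter, upper-quartile scaling, only the libraries compared, omission of each library in turn and a block for the replicate number. Voom on reads recovered from FPKM was added after seeing the data. Tables and figures used Python 3.11.15, numpy 2.4.6, pandas 2.3.3 and matplotlib 3.10.9.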

Additional observations from a re-analysis of the deposited data

Results flagged for a closer look

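In 5 of the 34 genes (14.7%) the RA effect differed between TG and WT by the test of the difference itself. Among all tested genes 7.48% were called, 2.73% in the direction of these 5. With no filter on low values Pkm kept its call, and Tpi1, Hif1a, Egln3 and Pfkl lost theirs. Fits without each library are given above. On the log2(FPKM + 1) scale the effect in TG was lower than in WT by a value of -0.38 for Pkm, -0.49 for Tpi1, -0.64 for Hif1a, -0.62 for Egln3 and -0.52 for Pfkl. In Pfkl, Tpi1 and Hif1a the 2 WT groups overlapped and the 2 TG groups did not, while in Pkm and Egln3 neither genotype's groups overlapped. B-cell markers, mostly Ighm, and Rara were also higher in TG with RA than in TG without, and their part in these differences was not tested. With 2 libraries in each group, no search for single outlying libraries was made.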

How the results depend on the processing

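Of the 34 genes, the number with an RA effect in TG stayed between 18 (no filter) and 24 under the other settings, with 22 under upper-quartile scaling (Bnip3l and Egln1 lost; with no filter also Aldoc, Gapdh, Pfkfb3 and Pgk1), and was 14 to 16 when 1 library was left out. For RA in WT the count of 3 became 1 with no filter, 5 with upper-quartile scaling, 1 with only the libraries compared and 0 to 2 without 1 library. For KO against WT without RA the count of 0 became 1 with upper-quartile scaling and 1 with voom on recovered reads. For KO against WT with RA it was 0 to 1 without 1 library. For TG against WT without RA the count of 2 became 1 with a pseudocount of 0.1, 1 with no filter, 0 with only the libraries compared and 0 in each fit without 1 library. For TG against WT with RA the count of 5 became 2 with no filter, 1 with only the libraries compared and 1 to 3 without 1 library. For the RA effect in TG minus that in WT it became 2 with no filter and 0 to 2 without 1 library. The cause of these changes was not tested. Fits without a library also had fewer samples, and there the fit takes a lone sample to vary as the others do. The counts for RA in KO and for the RA effect in KO minus that in WT were 0 throughout.

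Replicate numbers are shared by the groups, but the labels do not say what they mark, and differences between replicates 1 and 2 correlated between groups with r of 0.0035 to 0.33 across genes, over 0.1 in 10 of 15 pairs of groups. Between the doses of a genotype r was 0.327 in WT, 0.32 in KO and 0.147 in TG, and the sex of the TG libraries followed the number. With a replicate block in the fit, 6 genes were called for RA in WT (17.6% of the set, against 14.2% of all tested genes). Bnip3l, Egln3 and Ero1l were the ones added. For RA in TG 24 were called (70.6%, against 43.7%). For KO against WT 1 was called without RA (2.94%, against 4.02%) and 1 with RA (2.94%, against 1.46%). For TG against WT 3 were called without RA (8.82%, against 6.90%) and 6 with RA (17.6%, against 15.2%). For the RA effect in TG minus that in WT 5 were called (14.7%, against 10.5%). Apart from RA in TG, these shares are near the background and are no result about the set.

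Of 510 values of single genes under an alternative, 376 kept their direction and their side of the threshold, 129 kept the direction only and 5 changed direction. These 5 were RA effects in KO, none of them called: Hk2 at -0.026 without KO replicate 2 at 10 nM, Pfkfb3 at 0.13 without KO replicate 1 at 0 nM and 0.11 without KO replicate 2 at 10 nM, and Hif1a at -0.09 without KO replicate 2 at 0 nM and -0.12 without KO replicate 1 at 10 nM. Over all fits without 1 KO library these effects ran from -0.026 to 0.30 for Hk2, from -0.15 to 0.13 for Pfkfb3 and from -0.12 to 0.17 for Hif1a. Depth limits P4ha2, with 28 to 189 reads in a library, and Aldoc, with 58 to 164 reads, more than the other members named.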
